A study of Mus musculus with 7 samples.

Results

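Khdc1a, Khdc1b and Khdc1c are neighbouring paralogs on mouse chromosome 1 that encode small proteins with a KH domain, a fold that binds RNA. They were taken by symbol from a table of read counts for 53379 genes, in which all 3 were found and all 3 passed the filter on low counts that left 12161 genes. The RNA came from natural killer (NK) cells, innate lymphocytes that kill target cells, sorted directly ex vivo from the spleen of C57BL/6 mice as CD45+ CD3- NK1.1+ NKp46+ CD49b+ cells. There were 4 Hhex KO libraries, from mice labelled as deficient for Hhex, a homeobox transcription factor, and 3 Cre control libraries, from mice labelled only as carrying Cre. The sources used here do not give the gene that drives Cre, the ages of the animals or whether animals were pooled. The 3 genes were selected on their levels in Hhex KO against Cre control, so their differences between those groups are given as a description, with no test.

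KH domain proteins of this family are best known from oocytes and early embryos, where relatives such as KHDC3 and OOEP belong to the subcortical maternal complex, an assembly the egg lays down before fertilization. KHDC1 proteins have been described in oocytes as partners of CPEB, a regulator of cytoplasmic polyadenylation, and as repressors of translation at the endoplasmic reticulum whose overexpression can start apoptosis. RefSeq lists Khdc1b as an older name of Khdc1c and the reverse, so the genes are identified here by their Ensembl entries.

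On GRCm38 all 3 genes lie on the plus strand within 36733 bases. Khdc1a (ENSMUSG00000067750.3) occupies 21349641 to 21352200, Khdc1c (ENSMUSG00000041722.7) 21368331 to 21370845 and Khdc1b (ENSMUSG00000085079.3) 21383556 to 21386373. Each has 1 annotated transcript of 3 exons, of 1987, 1946 and 2236 bases in that order. Khdc1a and Khdc1c code for 166 codons each, and Khdc1b for 126.

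The copies are close enough that a read may not name its gene. Exon 2, which is wholly coding and 183 bases long in each gene, was the same base for base in Khdc1a and Khdc1c, and Khdc1b differed from both at 7 positions. It is shown because it is the one exon that is wholly coding, with capitals marking the bases at which Khdc1b differs. The Khdc1c copy, at chr1:21368892-21369074, reads as the Khdc1a line.
Khdc1a exon 2, chr1:21350258-21350440: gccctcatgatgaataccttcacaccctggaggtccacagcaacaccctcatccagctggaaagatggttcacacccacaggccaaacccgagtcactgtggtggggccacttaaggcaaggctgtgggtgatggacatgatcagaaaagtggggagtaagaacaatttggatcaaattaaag
Khdc1b exon 2, chr1:21384175-21384357: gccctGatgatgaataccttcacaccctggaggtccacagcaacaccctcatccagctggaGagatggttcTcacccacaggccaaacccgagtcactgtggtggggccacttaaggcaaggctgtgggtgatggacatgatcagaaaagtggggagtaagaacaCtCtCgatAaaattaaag

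Over the whole coding sequence of 498 bases, Khdc1a and Khdc1c differed at 1 base, T416C counted from the first base of the start codon, with the Khdc1a base first. It is position 2 of codon 139, in exon 3. The stretch around it is printed because it is the only part of the coding sequence in which the 2 genes can be told apart, and the capital marks the differing base.
Khdc1a, chr1:21350978-21351038: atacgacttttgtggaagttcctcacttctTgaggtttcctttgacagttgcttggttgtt
Khdc1c, chr1:21369612-21369672: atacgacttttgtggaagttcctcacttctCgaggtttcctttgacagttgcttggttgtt

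Khdc1b shared 352 of 378 aligned coding bases with either of the others (93.1%) and then ended early, at a stop codon in exon 3 after 95 coding bases, where the others go on for 215. The 45 bases up to that stop show the point of divergence, with the stop codon in capitals. The Khdc1a window at the same distance from the start of exon 3 held no stop in frame.
Khdc1b, chr1:21384855-21384899: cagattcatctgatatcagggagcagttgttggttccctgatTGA
Khdc1a, chr1:21350929-21350973: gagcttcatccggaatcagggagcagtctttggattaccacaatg

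The reads of this study were 75 bases long, so each transcript was cut into all its windows of 75 bases and these were looked up in every annotated mouse transcript, on both strands. Of 1913 windows of Khdc1a, 1298 (67.9%) occurred in no other gene, and of 1872 windows of Khdc1c, 1257 (67.1%). For Khdc1b it was 2143 of 2162 windows (99.1%). The shared windows of Khdc1a and Khdc1c were mostly coding: within the coding sequence 75 of 424 windows (17.7%) were found in no other gene, for either gene. In the 3′ untranslated regions it was 96.2% and 96.3% of windows. The 5′ untranslated regions were shared more, with 41% of windows for Khdc1a and 28.9% for Khdc1c in no other gene, and 18.4% and 1.58% with up to 2 mismatches. When up to 2 mismatches were allowed, the shares in no other gene fell to 32.7% for Khdc1a, 31.8% for Khdc1c and 86.6% for Khdc1b, and within the coding sequence of Khdc1a and Khdc1c to 0 of 424 windows. The sources used here do not say how the counting treated reads that match several places. Counts of Khdc1a and Khdc1c are therefore uncertain as to which of the 2 genes they belong to, while those of Khdc1b rest mainly on sequence of its own.

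**Figure D1:**
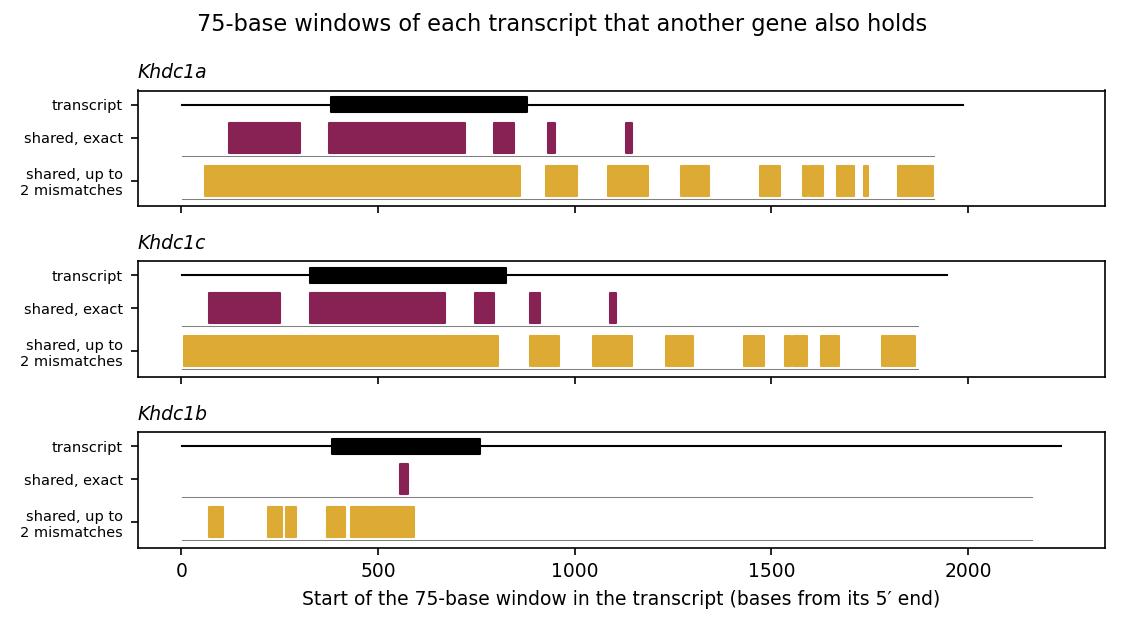
Position along each transcript (x axis, bases from the 5′ end) of 75-base windows that occur in another gene, exactly or with up to 2 mismatches; the black line is the transcript and the black box its coding part. Exact sharing takes up most of the coding part of Khdc1a and Khdc1c and 19 windows of Khdc1b.

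Total counts were between 10589915 and 18456404 per library. Replicates differed by more than sampling noise, with a chi-square per degree of freedom over genes of 14.4 to 16.1 between Cre control libraries. Among Hhex KO libraries it was 10.4 between replicates 2 and 3, 25.9 between replicates 1 and 4, and 62.8 to 71.5 for the other pairs. Replicates 2 and 3 thus stood apart from 1 and 4. Replicate 4 also has sample number 95, against 20 to 28 for the rest. Values are CPM, the count scaled to the same TMM-adjusted library size, and where genes are compared with each other CPM per kilobase of transcript. Values of single libraries are given in the order of their replicate numbers, which is only a name. The series' design text calls the libraries biological replicates without tying them to animals, so p-values measure the spread between these libraries. The targeted gene Hhex was at 96.1, 95.6 and 93.5 CPM in the controls and at 58.0, 56.5, 54.2 and 64.8 CPM in the Hhex KO libraries, lower but still read in each of them. Its log2 fold change was -0.70 ± 0.10 (edgeR adjusted p = 0.00768), and without Cre control replicate 1 the edgeR adjusted p was 0.0516. Over all genes edgeR called 326 higher and 228 lower. Without 1 control library it called 91 to 153 higher and 50 to 82 lower. Without Hhex KO replicate 1, 2 or 3 it called 189 to 232 higher and 108 to 195 lower, and without replicate 4 527 and 291.

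The sorted cells carried NK cell transcripts: all 12 NK cell markers, among them Ncr1, Klrb1c and Eomes, passed the filter. With edgeR's quasi-likelihood test 0 of them were called at an adjusted p of 0.05, against 4.56% of all tested genes called in either direction. At an unadjusted p under 0.05 there were 2, while DESeq2 called 1 as lower and limma-voom 0. The share of all tested genes at that unadjusted level is not given here. Counts at that level, here and for the lists and neighbours below, therefore have no background beside them and are not read as an excess. Of all 12161 tested genes DESeq2 called 625 higher and 469 lower, limma-voom 329 and 251, and edgeR 326 and 228. The summed level of the 12 NK cell markers was 22186 to 27229 CPM over the controls and 17905 to 21939 CPM over the Hhex KO libraries. Of 11 T cell markers 8 were tested and 1, Trbc2, rose (edgeR adjusted p = 0.0412). The median log2 fold change of the 8 was 0.76, with 6 at an unadjusted p under 0.05. DESeq2 called 2 higher, limma-voom 1, and edgeR with no filter on low counts 0. Their summed level was 274 to 324 CPM over the controls and 392 to 456 CPM over the Hhex KO libraries. Of 7 B cell markers 3 were tested and 1, Cd79b, rose (edgeR adjusted p = 0.0292), with sums of 211 to 256 CPM and 240 to 404 CPM. The median log2 fold change of the 3 was 1.90, with 2 at an unadjusted p under 0.05. DESeq2 called 2 higher, and with limma-voom the call was lost (0 higher). Neither list had a call without Cre control replicate 1, 2 or 3 or without Hhex KO replicate 2. The T cell list had none without Hhex KO replicate 3. Over all genes edgeR also called fewer in these settings. Without Hhex KO replicate 4 it called 3 of 9 tested T cell and 2 of 3 tested B cell markers higher. With replicate numbers 1 to 3 fitted as blocks, which also leaves out that library, the same numbers were higher. Over all genes 527 were higher without replicate 4 and 499 with the block, in place of 326. The 7 tested of 10 myeloid and 5 tested of 6 erythroid markers gave 0 calls with edgeR's main fit, DESeq2 and limma-voom, and 0 at an unadjusted p under 0.05. With the block 1 of 9 tested myeloid markers was called higher. The myeloid sum was 53.7 to 149 CPM over the controls and 22.9 to 529 CPM over the Hhex KO libraries, and the erythroid sum 4.32 to 25.1 and 1.95 to 47.3 CPM. No marker on these lists was at 0 in every library, and the part of such cells in the Khdc1 values was not tested. In bulk RNA, fewer cells that express a gene and less of its RNA per cell cannot be told apart.

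Khdc1a, the copy at the 5′ end of the cluster, had the most reads. It received 655, 403 and 748 reads in the controls and 229, 248, 239 and 220 in the Hhex KO libraries. Scaled by depth, the controls were at 49.1, 35.5 and 40.4 CPM and the Hhex KO libraries at 14.8, 14.2, 14.1 and 19.5 CPM. The groups did not overlap: the highest Hhex KO library, replicate 4, lay below the lowest control, replicate 2. The mean went from 41.7 ± 6.90 CPM (n = 3, SD) to 15.6 ± 2.58 CPM (n = 4, SD), a log2 fold change of -1.42 ± 0.16 (standard error), or 2.67-fold lower in Hhex KO.

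Khdc1c, whose coding sequence is nearly that of Khdc1a, received 253, 167 and 305 reads in the controls and 114, 130, 106 and 89 in the Hhex KO libraries. The controls were at 19.0, 14.7 and 16.5 CPM and the Hhex KO libraries at 7.38, 7.45, 6.24 and 7.88 CPM. Again every Hhex KO library lay below every control. The mean was 16.7 ± 2.14 CPM (n = 3, SD) against 7.24 ± 0.699 CPM (n = 4, SD), a log2 fold change of -1.21 ± 0.16.

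Khdc1b, the shorter protein and the copy whose reads are least shared, received 210, 142 and 238 reads in the controls and 97, 85, 106 and 82 in the Hhex KO libraries. That corresponds to 15.7, 12.5 and 12.9 CPM and to 6.28, 4.87, 6.24 and 7.26 CPM. Its groups did not overlap either. The mean was 13.7 ± 1.78 CPM (n = 3, SD) against 6.16 ± 0.984 CPM (n = 4, SD), a log2 fold change of -1.15 ± 0.18. All 3 genes thus had every Hhex KO library below every control, as had 9.98% of all tested genes. Since this comparison chose them, nothing is read from that count. Summed over the cluster, the level was 72.1 ± 10.8 CPM (n = 3, SD) in Cre control and 29.1 ± 3.83 CPM (n = 4, SD) in Hhex KO.

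**Figure D2:**
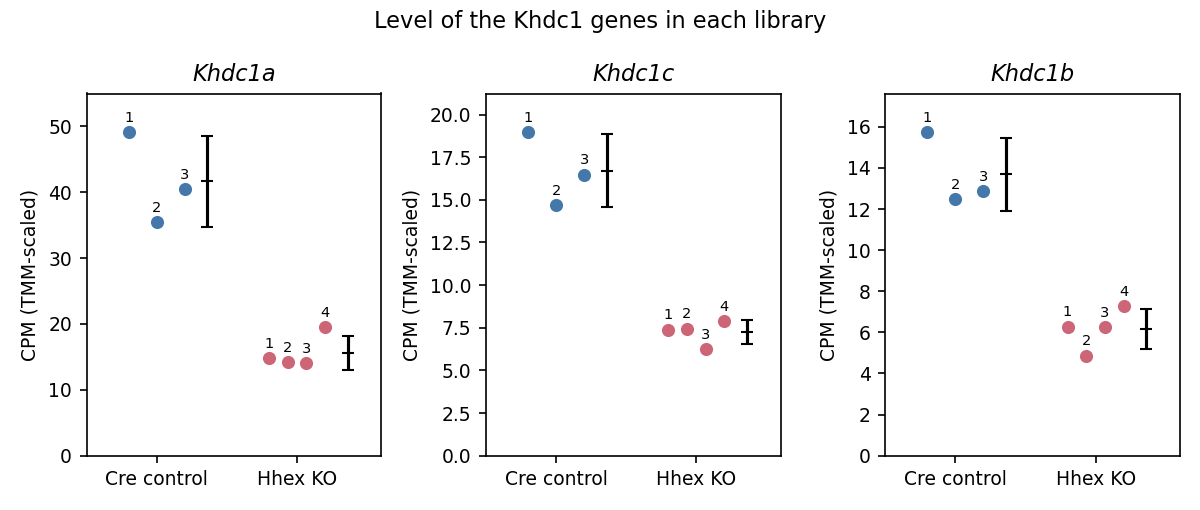
CPM of each Khdc1 gene (y axis, from 0) in Cre control and Hhex KO libraries; points are libraries labelled with their replicate number, and the bar is the mean ± SD. For all 3 genes the Hhex KO points lie below the control points, and Cre control replicate 1 and Hhex KO replicate 4 are the highest of their groups.

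The same library was highest for all 3 genes within each group. Cre control replicate 1 had the highest level of each in its group, and Cre control replicate 2 the lowest. Among Hhex KO libraries replicate 4 was the highest for each gene, and it was also the Hhex KO library with the most Hhex. Since every Hhex KO library lay below every control, so did both pairs that stood apart over all genes, 2 with 3 and 1 with 4. The lowest Hhex KO library was replicate 3 for Khdc1a and Khdc1c and replicate 2 for Khdc1b. Without Hhex KO replicate 4 the log2 fold changes were -1.54 for Khdc1a, -1.25 for Khdc1c and -1.24 for Khdc1b, and without Cre control replicate 1 they were -1.29, -1.11 and -1.05.

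Per length of transcript, Khdc1a was the most abundant of the 3 in every library. In Cre control it was at 20.96 ± 3.47 CPM per kilobase (n = 3, SD), Khdc1c at 8.59 ± 1.10 and Khdc1b at 6.13 ± 0.794. In Hhex KO the levels were 7.88 ± 1.30, 3.72 ± 0.359 and 2.76 ± 0.440 CPM per kilobase (n = 4, SD). The order Khdc1a, Khdc1c, Khdc1b held in each of the 7 libraries. Between Khdc1c and Khdc1b the difference was small: in Hhex KO their ranges of 3.21 to 4.05 and 2.18 to 3.25 CPM per kilobase met, and Hhex KO replicate 3 had 106 reads of each. The ratio of Khdc1a to Khdc1c per length was 2.36 to 2.54 in Cre control and 1.87 to 2.42 in Hhex KO, and that of Khdc1c to Khdc1b was 1.35 to 1.47 and 1.15 to 1.76. If reads had been counted only where a gene has windows of its own, scaling by the number of such windows would give another picture of Khdc1b: the ratio of Khdc1c to Khdc1b would be 2.08 ± 0.0930 (n = 3, SD) in Cre control in place of 1.40 ± 0.0626, and that of Khdc1a to Khdc1b 5.01 ± 0.280 in place of 3.41 ± 0.191. The ratio of Khdc1a to Khdc1c hardly depends on this choice, at 2.41 ± 0.0893 and 2.43 ± 0.0903. That follows from the reference, since the lengths (1987 and 1946 bases) and window numbers (1298 and 1257) of the 2 genes are close. It does not show how the ratio depends on the counting of reads that both genes share, which was not tested.

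The reads of the cluster divided among the copies in similar parts in both groups. Khdc1a held 58.6%, 56.6% and 57.9% of the cluster's reads in the controls and 52.0%, 53.6%, 53.0% and 56.3% in the Hhex KO libraries. The highest Hhex KO share lay just below the lowest control share. Their exact binomial 95% intervals, 51.2% to 61.2% for Hhex KO replicate 4 and 52.9% to 60.3% for Cre control replicate 2, overlap and cover counting error only. The share of Khdc1c was 22.6% to 23.6% in Cre control and 22.8% to 28.1% in Hhex KO, and that of Khdc1b 18.4% to 19.9% and 18.4% to 23.5%. Both of these ranges overlapped between the groups. The mean share of Khdc1a was 57.7% ± 1.01 (n = 3, SD) in Cre control and 53.7% ± 1.81 (n = 4, SD) in Hhex KO.

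**Figure D3:**
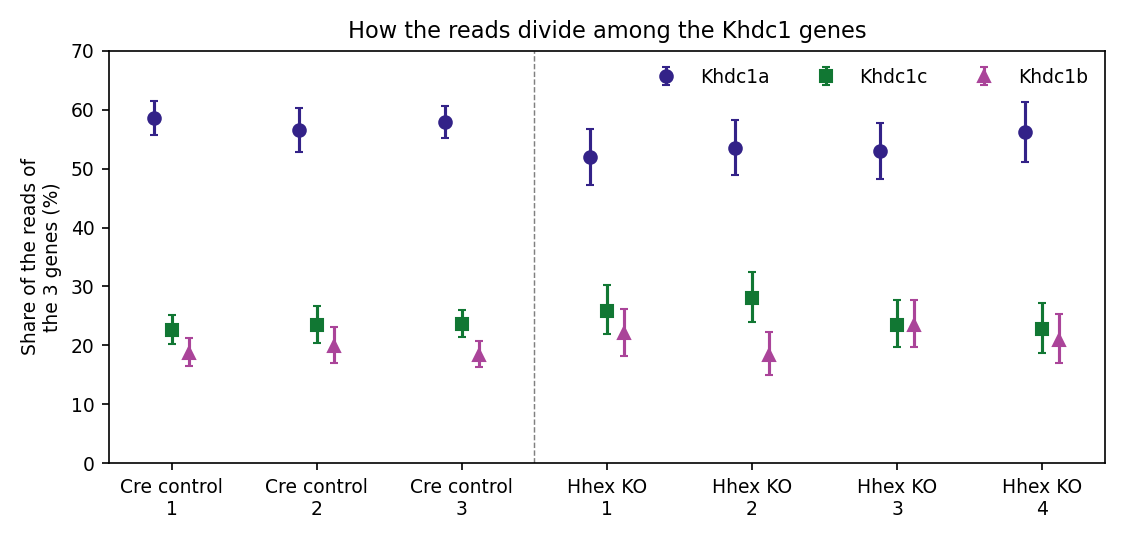
Share of the summed Khdc1a, Khdc1b and Khdc1c counts that each gene holds (y axis, percent) in each of the 7 libraries, with exact binomial 95% intervals for counting error. Khdc1a holds 52.0% to 58.6% in every library, and the other two hold 18.4% to 28.1% each.

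Most of the region around the cluster was silent or low. Within 1 Mb there are 40 other annotated genes, all in the table, of which 15 had no count in any library and 11 were tested. With edgeR's quasi-likelihood test and Benjamini-Hochberg adjustment over all tested genes, 0 of the 11 rose and 1 fell, against 1.87% of all tested genes that fell. At an unadjusted p under 0.05 there were 6, with no share over all genes given, so this count is not read as an excess. DESeq2 and limma-voom each called 0 higher and 1 lower. Of all 12161 tested genes DESeq2 called 625 higher and 469 lower, and limma-voom 329 and 251. The median log2 fold change of the 11 neighbours was -0.17, against 0.02 over all genes. The interleukin-17 genes Il17a and Il17f, which lie 615145 and 559024 bases away, had at most 1 and 2 counts in a library.

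The neighbour that fell was Gm4956 (ENSMUSG00000025936.15), annotated as a transcribed unprocessed pseudogene on the minus strand at 21285246 to 21298312, 51329 bases from the cluster. The controls were at 114, 95.2 and 95.1 CPM and the Hhex KO libraries at 45.1, 29.96, 35.9 and 55.0 CPM. Every Hhex KO library lay below every control, as in 9.98% of all tested genes. The log2 fold change was -1.29 ± 0.20 (edgeR adjusted p = 0.00988). The call ended without Cre control replicate 1 (edgeR adjusted p = 0.0641) or replicate 3 (0.0519), settings in which fewer genes of all were called. Over the 13 alternative settings the log2 fold change of Gm4956 was -1.47 to -1.16. Gm4956 is no copy of Khdc1: its best local alignment to a Khdc1 transcript covered 21 bases, all its 1364 distinct 75-base windows were its own, and it aligned to the glutathione S-transferase gene Gsta3 over 600 bases at 73.2% identity. Gsta3 itself had at most 5 counts in a library. As for the Khdc1 genes, Cre control replicate 1 and Hhex KO replicate 4 were the highest of their groups for Gm4956. The same held for Hhex, and the share of all tested genes with this order was not worked out.

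The 2 tested genes next to Gm4956 had lower means in Hhex KO but did not pass the test. Gm21909, a pseudogene between Gm4956 and Khdc1a with 3 to 40 counts per library, had a log2 fold change of -1.55 ± 0.57 (edgeR adjusted p = 0.181), and its groups overlapped. Gm28836, an antisense transcript at the Gsta3 locus, was at 3.72 ± 0.385 CPM (n = 3, SD) against 2.09 ± 0.613 CPM (n = 4, SD), with log2 fold change -0.83 ± 0.28 (edgeR adjusted p = 0.142). For Gm28836 every Hhex KO library lay below every control, as in 9.98% of all tested genes. The counting may not have kept the strand of Gm28836 apart from that of the overlapping Gsta3.

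Beyond the other end of the cluster lies Kcnq5, a potassium channel gene on the opposite strand whose 3′ end is 12030 bases from Khdc1b. It was at 33.7 ± 7.13 CPM (n = 3, SD) in Cre control and 24.5 ± 4.86 CPM (n = 4, SD) in Hhex KO, with overlapping groups (edgeR adjusted p = 0.258). The pseudogene Gm7658, within Kcnq5, had a log2 fold change of 1.48 ± 0.44 at under 4 CPM (edgeR adjusted p = 0.102; 0.04999 without Hhex KO replicate 4). Its Hhex KO libraries all lay above the controls, and the share of all genes with that order was not worked out. Of the genes farther away on the Khdc1a side, Tmem14a had a log2 fold change of -0.17 ± 0.21 and Tram2, which encodes a translocating chain-associated membrane protein, -0.05 ± 0.15. Paqr8, a progestin receptor gene, had -0.68 ± 0.26 (edgeR adjusted p = 0.206), with every Hhex KO library below every control. Mcm3, a subunit of the replicative helicase, had 0.71 ± 0.33 (edgeR adjusted p = 0.301; 0.0133 when replicate numbers 1 to 3 were fitted as blocks).

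Khdc1-like pseudogenes inside the cluster took few reads. Gm16329, which aligns to Khdc1b at 90.2% identity over 368 bases, had a log2 fold change of 0.38 ± 0.95 (edgeR adjusted p = 0.9). Its level was 0.118 to 4.25 CPM over the Hhex KO libraries and 0.704 to 1.95 CPM over the controls. The highest value was in Hhex KO replicate 4, and without that library the log2 fold change was -0.80. Gm16328, just beyond Khdc1b, had a log2 fold change of -0.09 ± 0.30. The other 3 (Gm16327, Gm2709 and Gm16533) had at most 6 counts in a library and were not tested. Gm2709 is the one pseudogene that shares exact 75-base windows with Khdc1a and Khdc1c.

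**Figure D4:**
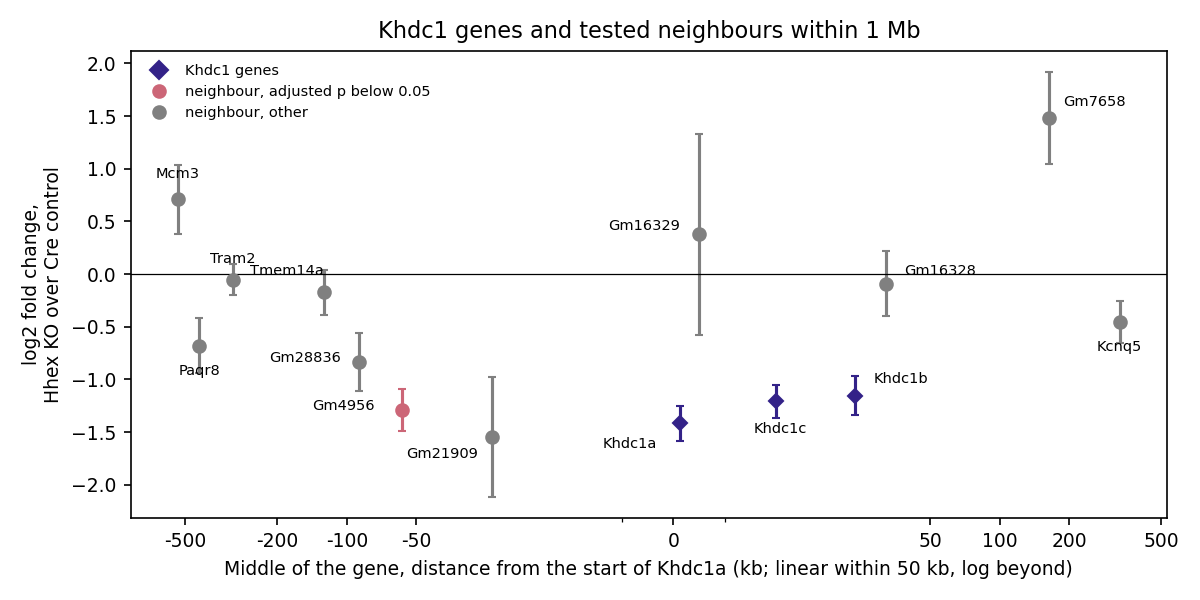
Log2 fold change of Hhex KO over Cre control ± standard error (y axis) for the Khdc1 genes and the 11 tested neighbours, by distance of the gene's middle from the start of Khdc1a (x axis, kb, linear within 50 kb and logarithmic beyond). The Khdc1 genes lie between -1.42 and -1.15; among the neighbours Gm4956, at -1.29, passed the test.

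The oocyte partners of the family were almost unread in these cells. Khdc3, which encodes a KH domain protein of the maternal complex, had 34 counts over the 7 libraries together, Ooep 2 and Dppa5a 0. Of 20 genes of the oocyte and the subcortical maternal complex, 11 had no count in any library, among them Nlrp5, Zp2, Zp3 and Mos. A count of 0 in the 104964380 reads of all libraries allows up to 0.0286 CPM, for counting error only. The only gene of the list that was tested was Zbed3, at 19.8 ± 4.14 CPM (n = 3, SD) and 19.7 ± 3.85 CPM (n = 4, SD), with a log2 fold change of -0.01 ± 0.20 (edgeR adjusted p = 0.991; 0 of 1 at an unadjusted p under 0.05, and 0 called with DESeq2 or limma-voom).

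Among other RNA-binding proteins with KH domains, 32 of 39 listed genes were tested. With edgeR 0 rose and 1 fell, against 4.56% of all tested genes called in either direction. At an unadjusted p under 0.05 there were 7 of 32, with no share over all genes given. DESeq2 called 1 higher and 2 lower, against 625 and 469 of all 12161 tested genes. With limma-voom it was 0 and 1, against 329 and 251. The median log2 fold change was 0.04, against 0.02 over all genes. The lower gene was Tdrkh, a KH and Tudor domain protein of the piRNA pathway in germ cells, which went from 10.5 ± 0.325 CPM (n = 3, SD) to 6.21 ± 0.614 CPM (n = 4, SD). Its log2 fold change was -0.75 ± 0.16 (edgeR adjusted p = 0.0314). The call of Tdrkh ended without any 1 of Cre control replicates 1, 2 and 3 and Hhex KO replicates 1, 2 and 3 (adjusted p 0.0652 to 0.138). It also ended with no filter on low counts (0.0547) and with the replicate block (0.0521). Without any 1 of those libraries fewer genes of all were called. Over the 13 alternative settings the log2 fold change of Tdrkh was -0.80 to -0.70.

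Genes of cytoplasmic polyadenylation and translational repression, the process to which CPEB belongs, gave 1 lower and 0 higher genes of 31 tested with edgeR. Among all tested genes 1.87% were lower and 4.56% were called in either direction. A single call of 31 is near that share. At an unadjusted p under 0.05 there were 5, with no share over all genes given. DESeq2 called 2 higher and 1 lower, against 625 and 469 of all 12161 tested genes. With limma-voom it was 0 and 1, against 329 and 251. The median log2 fold change was -0.05. Btg1, an antiproliferative cofactor of mRNA deadenylation, fell from 1439 ± 189 CPM (n = 3, SD) to 728 ± 170 CPM (n = 4, SD), with a log2 fold change of -0.98 ± 0.21 (edgeR adjusted p = 0.0334). That call was lost without any 1 control library or Hhex KO replicate 3 (adjusted p 0.0708 to 0.150). Fewer genes of all were called in these settings. Over the 13 alternative settings the log2 fold change of Btg1 was -1.09 to -0.83.

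Of 28 tested genes of endoplasmic reticulum stress, 2 fell and 0 rose with edgeR, against 1.87% lower among all tested genes. At an unadjusted p under 0.05 there were 6, with no share over all genes given. DESeq2 called 3 lower and limma-voom 2, against 469 and 251 lower of all 12161 tested genes. The median log2 fold change was -0.02. Atf4, a transcription factor of the integrated stress response, went from 287 ± 53.8 CPM (n = 3, SD) to 153 ± 33.6 CPM (n = 4, SD), a log2 fold change of -0.90 ± 0.19 (edgeR adjusted p = 0.0351). Dnajb9, a chaperone of the endoplasmic reticulum, went from 95.9 ± 12.2 CPM to 48.1 ± 12.8 CPM, a log2 fold change of -0.99 ± 0.21 (edgeR adjusted p = 0.0312). Without any 1 control library or without Hhex KO replicate 3, neither passed the test (adjusted p 0.0678 to 0.173). Atf4 did not without Hhex KO replicate 2 (0.0765). Fewer genes of all were called in these settings too. Over the 13 alternative settings the log2 fold change was -1.04 to -0.75 for Atf4 and -1.12 to -0.86 for Dnajb9.

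The genes whose profile came closest to that of Khdc1a were found by the root mean square difference of log2(CPM + 0.5), each gene centred on its own mean over the 7 libraries. The median over the 12160 other tested genes was 0.75. The nearest was Vegfc, a growth factor of lymphatic vessels, at 0.0907, with 25.4 CPM in Cre control and 10.3 CPM in Hhex KO as means. Phactr3, a regulator of protein phosphatase 1 and actin, followed at 0.11 (135 and 44.6 CPM), then the zinc finger gene Zfp52 at 0.13 (65.7 and 26.4 CPM) and the T cell receptor delta segment Trdv4 at 0.14 (33.4 and 13.4 CPM). Khdc1c came next at 0.16, rank 7 of all genes with predicted and clone names counted, and Khdc1b at 0.18 ranked 11. Gm4956, at 0.17, ranked 9. This likeness is measured over libraries that include the comparison by which the cluster was chosen, so it is a description.

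**Figure D5:**
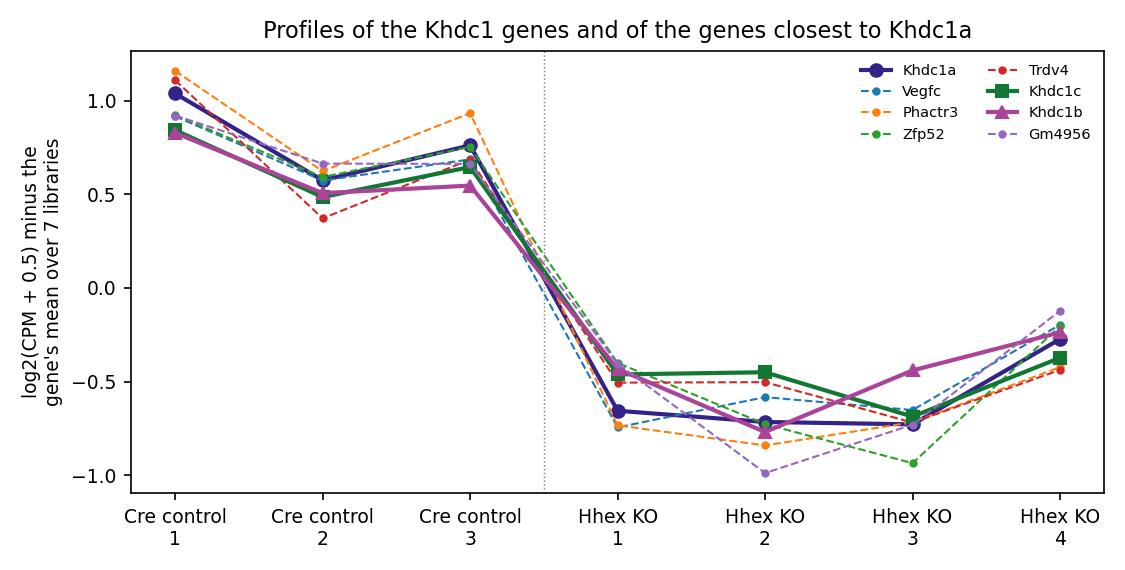
Log2(CPM + 0.5) of each gene minus its mean over the 7 libraries (y axis) in each library (x axis); solid lines are the Khdc1 genes, dashed lines the genes closest to Khdc1a and Gm4956, and lines only join the points of a gene. All 8 profiles are above 0 in the 3 Cre control libraries and below 0 in the 4 Hhex KO libraries.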

How the data were processed

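The authors deposited raw read counts per gene, without normalization, with 1 column per library. Alignment with STAR and counting with featureCounts on mm10 are taken from the submitters' processing notes. Versions, annotation release, strand setting and the treatment of multi-mapping reads were not given in the sources used here. Per the labels, the libraries were directional, with single-end reads of 75 bases. Columns were matched to samples by their names (0 left unused), and 99.8% of gene identifiers matched a symbol.

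Counts were tested with edgeR 4.0.16 in R 4.3.3: genes kept by expression (minimum count 10, minimum total 15), TMM scaling, quasi-likelihood F test with robust dispersions, no covariate, Benjamini-Hochberg adjustment over 12161 genes, called below 0.05. The standard error is the log2 fold change divided by the square root of F. The procedure was tested on simulated data. An exact permutation test of 4 against 3 libraries cannot go below p = 0.0286. Sequences are GENCODE M21 transcripts on GRCm38, aligned with Biopython 1.88. Alternatives were RLE scaling, no filter, a filter of 10 CPM in 3 libraries, DESeq2 1.42.0, limma-voom (limma 3.58.1), a replicate block and leaving out each library.

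The members and gene lists were chosen with earlier results of these data known. Named genes are the 3 members, every gene within 1 Mb with at least 10 counts in a library, called list members where 5 or fewer, and the 5 closest profiles without predicted or clone names, with Hhex. Untested neighbours and list genes were named after their values were seen.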

Additional observations from a re-analysis of the deposited data

Results flagged for a closer look

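Among the 18 sets of 4 Hhex KO values examined for a library far from the others (levels of the Khdc1 genes, Hhex and the tested neighbours, and the shares of cluster reads), 1 stood out by Dixon's criterion. Khdc1a was at 19.5 CPM in Hhex KO replicate 4, while the other 3 libraries were at 14.1 to 14.8 CPM. Chance flags about 1 in 20 such sets. The log2 fold change of Khdc1a was -1.42 with this library and -1.54 without it.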

How the results depend on the processing

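The log2 fold changes of the 3 Khdc1 genes were below 0 in all 13 alternatives. This sign is no check on the difference, since the genes were chosen on it and every Hhex KO library lay below every control. The values were -1.54 to -1.29 for Khdc1a, -1.29 to -1.11 for Khdc1c and -1.24 to -1.05 for Khdc1b. Each moved by less than the spread between replicates. The change in the shares of cluster reads also moved by less than that spread, including with counts divided by the windows a gene does not share, an alternative chosen after seeing the data. The share of windows found in no other gene was 56.5% for Khdc1a, 56.9% for Khdc1c and 96.3% for Khdc1b with windows of 50 bases, and 32.7%, 31.8% and 86.6% with up to 2 mismatches.

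Counts of called genes in the lists were small and moved with the setting. Calls over all genes moved too, and the cause was not tested. In the main fit 326 were higher and 228 lower, with DESeq2 625 and 469, and with no filter 387 and 227. Without 1 control library it was 91 to 153 and 50 to 82. Without Hhex KO replicate 1, 2 or 3 it was 189 to 232 and 108 to 195, and without replicate 4 527 and 291. With DESeq2 there were 3 KH domain and 3 translational repression genes, and with no filter 2 translational repression genes, against 1 and 1. Leaving out 1 library gave 0 to 2 neighbours (1 with all), 0 to 2 KH domain, 0 to 3 translational repression and 0 to 3 endoplasmic reticulum stress genes (2 with all). Oocyte calls stayed at 0 in all 13.

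Same-numbered libraries did not deviate together throughout (correlations of deviations from the group means 0.14, 0.59 and -0.12), so the numbers were not taken as pairs. A replicate block on the 6 libraries numbered 1 to 3 gave 2 neighbours, 2 KH domain (both higher, so without Tdrkh) and 3 translational repression genes, and 499 higher and 275 lower genes overall in place of 326 and 228.

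Log2 fold changes that changed sign belonged to genes that passed no test. Gm16329 was at -0.51 with limma-voom, -0.96 with the block and -0.80 to 0.98 with 1 library left out. Zbed3 was at 0.014, 0.11 and -0.15 to 0.15. With 1 library left out, Tram2 was at -0.15 to 0.028 and Gm16328 at -0.24 to 0.069. Over all genes there were 625 higher and 469 lower calls with DESeq2, and 186 and 183 with the 10 CPM filter, which left 4 of the 11 tested neighbours.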
